A study of Mus musculus with 26 samples.

Results

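The distal chromosome 6 genes were 132 protein-coding genes of the mouse genome (build mm10), which lie on chromosome 6 between position 97183670 and the last gene start at 149309414, a span of 52.2 Mb. They were chosen by a gene start at or after that first position in the GENCODE M21 annotation and by a mean TPM above 5 over 9 single cells, and they are 132 of the 7440 protein-coding genes that passed the same TPM limit. TPM, the unit of the RNA values, is the share of the RNA of a cell that a gene takes, corrected for transcript length. The region held 453 protein-coding genes, of which 139 passed the limit and 7 were set aside by name or family (Nanog, Dppa3, Tead4, Slc2a3, Ldhb, Ndufa9 and Rpl32).

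The cells were blastomeres of 2 mouse 8-cell embryos, which came from in vitro fertilization with gametes of C57BL/6 mice. The labels name no treatment and no altered gene, and neither embryo was a control for the other. Their RNA was profiled by scRR-seq-RNA. In it beads hold the DNA of a lysed cell, and the RNA left in solution is sequenced with the aim of covering whole transcripts. RNA values were held for 3 cells of embryo 1 (cells 1, 6 and 7) and 6 cells of embryo 2 (cells 2, 3, 5, 6, 7 and 8). Each embryo is 1 biological replicate and each cell is 1 library.

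The region, its start included, was singled out because its genes were low in embryo 1 cell 7 in these same values. The levels below are therefore a description of that cell against the other 8, with no test, and the background over all genes is given with the first count of each kind. TPM keeps no read depth, so no counting interval could be given.

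Genes that neighbour each other on a chromosome need not share a pathway. The distal part of mouse chromosome 6 carries genes for chromatin factors, ribosome assembly, glycolysis, signalling and membrane traffic, and it includes the cluster that holds Nanog, Dppa3, Gdf3 and Slc2a3. At the 8-cell stage most RNA of a blastomere is made by the embryo itself, while part of the maternal store from the oocyte remains.

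In embryo 1 cell 7, 119 of the 132 members were below the mean of the other 8 cells, against a background of 63.7%, and 13 were above it. The median ratio of TPM in this cell to the mean of the others was 0.341, with an interquartile range of 0.160 to 0.558, against 0.805 over all 7440 genes. For 73 members (55.3%) this cell had the lowest TPM of the 9, where the background over all genes was 18.6%. A further 6 members (background 1.17%) were at 0 in this cell and in at least 1 other. Kdm5a was the 1 member with its highest value in this cell, against a background of 10.8%.

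The shift was wide rather than carried by a few genes. The TPM was below 0.5 of the mean of the others for 91 members (68.9%, background 24.3%), and below 0.5 of the lowest other cell for 36 (27.3%, background 5.17%). On the scale of log2(TPM + 1), 65 members lay more than 2 SD below the mean of the other 8 cells (49.2%, background 12.3%). The cell was above the mean of the others for 13 members (9.85%, background 36.3%).

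In the difference in log2(TPM + 1) between a cell and the mean of the other 8, embryo 1 cell 7 stood apart. Cells 1 and 6 of the same embryo are called its sister cells here, although the labels give no lineage of the cells. The median of cell 7 over the members was -1.37. Embryo 1 cells 1 and 6 stood at 0.44 and 0.20. In embryo 2 the 6 cells ran from -0.19 to 0.43, so no other cell overlapped with the value of cell 7. The mean that each of these other cells is set against includes cell 7, which raises their medians. Over all 7440 genes the median of cell 7 was -0.15, and the 9 cells ran from -0.26 to 0.29.

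**Figure D1:**
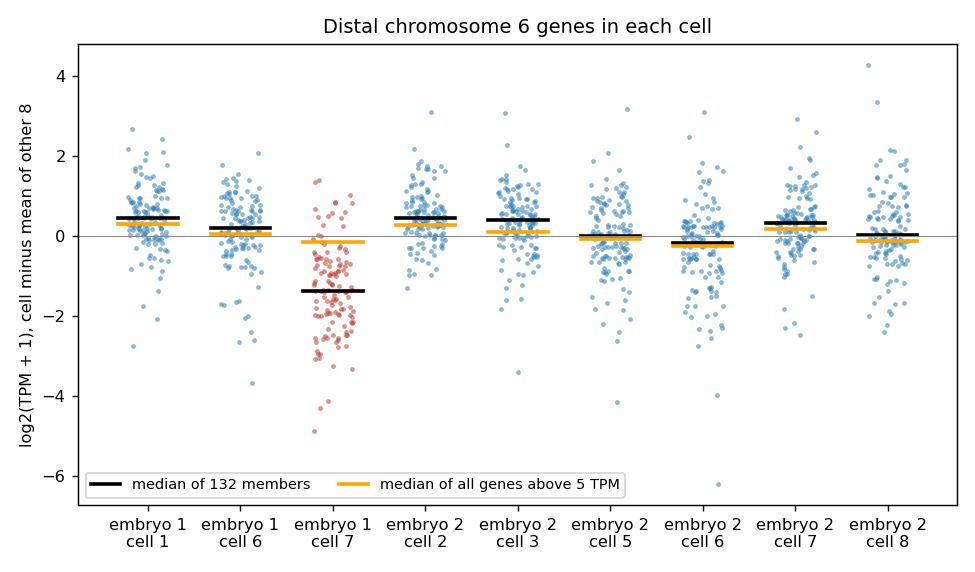
Each point is 1 of 132 members, plotted as log2(TPM + 1) in a cell minus the mean of the other 8 cells. Black lines are the median over the members and orange lines the median over all protein-coding genes with mean TPM above 5. The black line of embryo 1 cell 7 (red points) lies at -1.37 and its orange line at -0.15, while both lines lie close together in the other cells.

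The same held for the RNA that the members make up together. Their summed TPM was 3473 in embryo 1 cell 7, against 8776 and 8100 in cells 1 and 6 of embryo 1. In embryo 2 the lowest cell had 6645, the median lay between 7544 and 8459, and the highest had 9059. The sum of cell 7 was 0.430 of the mean of the other cells. The number of members with the lowest TPM of the 9 was 73 in this cell and 0 to 18 in the others.

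The closing numbers of the sample titles fall into 2 ranges, 11 to 17 and 20 to 25, a technical split that follows a larger and a smaller lysis volume in the study's list of samples. Embryo 1 cell 7 belongs to the range 20 to 25, which also holds embryo 1 cell 6 and embryo 2 cells 5, 6, 7 and 8. This is the range of the smaller lysis volume. For embryo cells of that volume the paper reports read coverage biased to the 3′ end of transcripts and fewer transcripts detected. Within the range 20 to 25 the member medians of the 5 other cells were -0.19 to 0.32. The cells numbered 11 to 17 had 0.39 to 0.44. Over all genes the medians of these same cells were -0.26 to 0.16 and 0.09 to 0.29. Against the 5 other cells of its own range alone, the member median of cell 7 was -1.22.

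Other traits of the whole library of cell 7 lay near an edge of the range of the others or outside it. It had 11088 genes above 1 TPM, where the others had 11058 to 13319. Mitochondrial genes made up 4.28% of its TPM, below the 5.98% to 18.2% of the other cells. With the mitochondrial genes left out and the rest scaled to the same total, the median difference of the members was -1.47. Markers of the preimplantation embryo summed to 3684 TPM in it and to 2139 to 3598 in the others, and 9 of the 10 were above 1 TPM in at least 1 cell. Dppa5a alone supplied 3102 of the 3684 TPM, against 1685 to 2751 in the others, while Gata6 was at 79.8 in cell 7 and at 129.1 to 208 in the others. The lists for cumulus, sperm, blood and fibroblast cells, of 8, 4, 4 and 4 genes, summed to 0 in it and to at most 6.13 elsewhere. In the DNA of the same cell 0.00385% of the bins with a state were replicated, against 0.927% and 3.54% in the other cells of embryo 1 and 62.4% to 80.5% in embryo 2. The paper described representative cells of embryo 1 as uniform in copy number, apart from chromosomal abnormalities. Its text does not name the cells or the abnormal regions. It classed these cells as before or after S phase (G1 or G2/M). A low percent therefore cannot tell a cell before replication from one after it. Bins on chromosome 6 were not analysed here.

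The start of the region was set from these values, and the genes on either side of it are given as a description. The 3 protein-coding genes above 5 TPM nearest before it were Suclg2, Eogt and Tmf1. Suclg2, a subunit of succinate-CoA ligase, had 47.8 TPM in cell 7 and 30.8 to 56.8 in the others. Tmf1, a Golgi protein, had 21.1 and 4.31 to 26.9. Eogt, a sugar transferase of the endoplasmic reticulum, had 10.8 and 10.6 to 27.2. None of these 3 was lowest in cell 7.

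The first member, Uba3 (chr6:97183670-97205647, minus strand), makes a part of the enzyme that activates NEDD8 for attachment to proteins. It had 8.83 TPM in cell 7 where the other cells had 17.8 to 33.7. Rybp (chr6:100228565-100287485, minus strand), a subunit of Polycomb repressive complex 1, followed 3.04 Mb on with 11.6 TPM against 83.1 to 131.8. The third, Shq1, an assembly factor for small nucleolar RNPs, had 4.75 and 3.01 to 19.3, so it overlapped with the others. Cell 7 did not overlap with the other cells for 2 of the first 3 members, and it did for all 3 genes before them. Over all genes cell 7 was lowest for 18.6% and highest for 10.8%. The start was placed from these same values, so this contrast is set by the rule.

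Along the rest of the chromosome the level stayed low to its end. In steps of 10 Mb from the start, the median differences were -1.14 (6 members), -1.37 (29), -1.09 (48), -1.31 (18), -1.83 (23) and -1.32 (8). The share with cell 7 lowest lay between 50% and 65.2% in all 6 steps. In the 10 Mb before the start the median over 27 genes was -0.23 and the share was 29.6%. Over the 184 proximal genes of the chromosome the median was -0.15, the median ratio 0.838 and the share 20.7%, near the background of 18.6%.

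**Figure D2:**
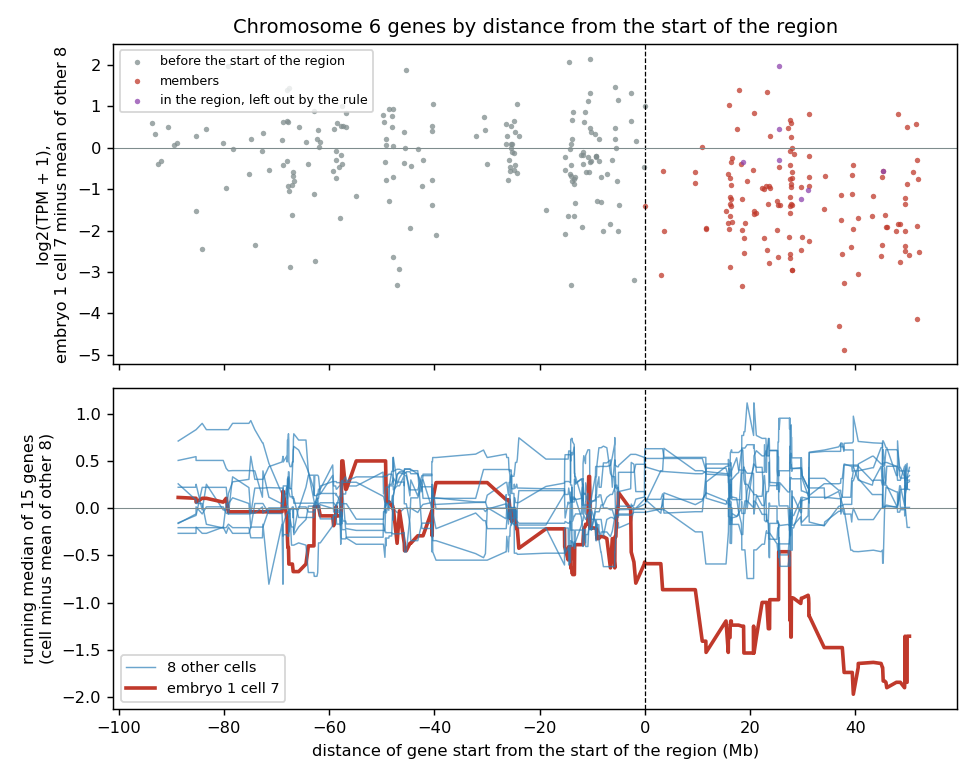
The upper panel plots the difference of each chromosome 6 gene in embryo 1 cell 7 (log2(TPM + 1) minus the mean of the other 8 cells) by the distance of its start from the start of the region in Mb. The lower panel gives running medians over 15 genes for each cell, with embryo 1 cell 7 in red, which falls at the dashed line and stays low to the end of the chromosome.

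Among the 19 other chromosomes, cell 7 had median differences of -0.29 to 0.18. The share of genes with the lowest TPM in this cell was 7.16% to 25.1% on them. The value of 0.18 was that of the X chromosome, and the next highest was 0.03 on chromosome 7. On the X chromosome embryo 1 cells 1 and 6 had 0.67 and 0.65, and the cells of embryo 2 had -0.44 to 0.04. On chromosome 10, 2 different cells were low, embryo 1 cell 6 with -0.64 and embryo 2 cell 6 with -0.77 over 349 genes, while cell 7 had 0.00. On chromosome 7, embryo 1 cell 1 had the highest median of the 9, at 0.71 over 577 genes. The distal chromosome 6 medians of these 3 cells were 0.20, -0.19 and 0.44. Over all genes their medians were 0.06, -0.26 and 0.29, so part of the values of the last 2 is shared by the whole library.

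**Figure D3:**
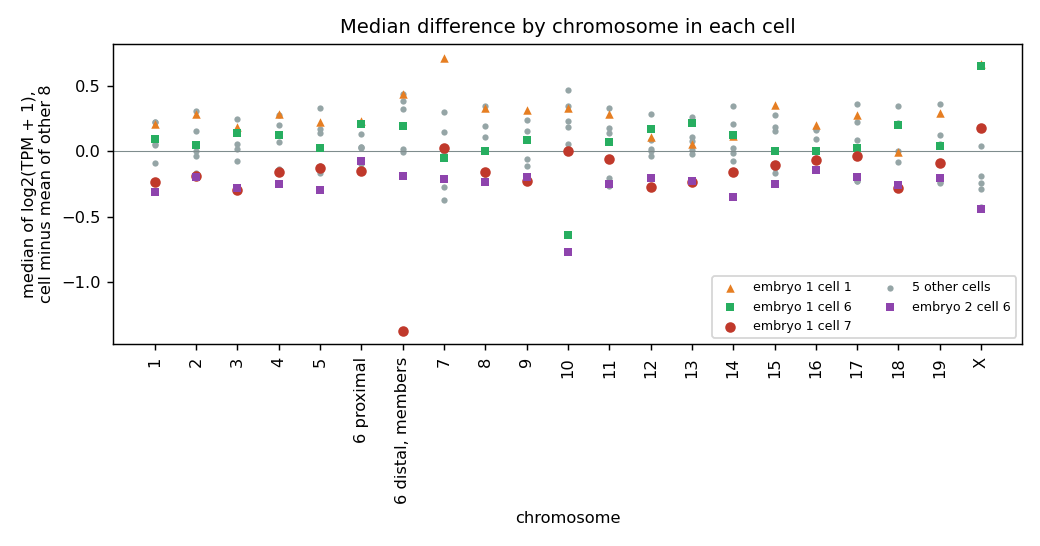
For each chromosome (horizontal axis) and each of the 9 cells, the median over genes of log2(TPM + 1) minus the mean of the other 8 cells. Embryo 1 cell 7 (red) lies at -1.37 for the distal chromosome 6 members and between -0.29 and 0.18 on the 19 other chromosomes, and embryo 1 cell 6 and embryo 2 cell 6 (squares) lie at -0.64 and -0.77 on chromosome 10.

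Promoter sequences of 4 members are printed to show what the genes of the segment have in common and where they differ. Bcat1, Ybx3 and Hnrnpf are 3 abundant members whose level in cell 7 was below all other cells, and Emg1 is an abundant member whose level was not. Each run is 300 bases, 5′ to 3′, from 250 bases before to 50 bases after a transcript start, from RefSeq on GRCm38.p6. Capitals mark matches, on either strand, to 5 short motifs. The TATA box was searched as the letters TATAAA, and the CCAAT box by the letters of its name. The GC box was searched as the letters GGGCGG in each promoter. For the core bound by ETS factors the letters were CCGGAAG, and for the E box they were CACGTG. Matches that overlap are run together.
Bcat1, chr6:145076108-145076407, minus strand: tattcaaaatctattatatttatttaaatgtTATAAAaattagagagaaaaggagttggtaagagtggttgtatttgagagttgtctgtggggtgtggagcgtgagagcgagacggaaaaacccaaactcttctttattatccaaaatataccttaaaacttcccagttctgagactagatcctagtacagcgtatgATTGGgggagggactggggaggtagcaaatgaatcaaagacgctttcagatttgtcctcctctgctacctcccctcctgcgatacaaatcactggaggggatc
Ybx3, chr6:131388401-131388700, minus strand: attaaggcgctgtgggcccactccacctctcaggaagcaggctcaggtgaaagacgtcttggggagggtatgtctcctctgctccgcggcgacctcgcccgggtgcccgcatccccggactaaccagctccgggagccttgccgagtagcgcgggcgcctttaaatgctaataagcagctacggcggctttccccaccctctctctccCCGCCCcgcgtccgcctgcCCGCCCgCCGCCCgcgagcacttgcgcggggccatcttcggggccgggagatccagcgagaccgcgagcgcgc
Hnrnpf, chr6:117900090-117900389, plus strand: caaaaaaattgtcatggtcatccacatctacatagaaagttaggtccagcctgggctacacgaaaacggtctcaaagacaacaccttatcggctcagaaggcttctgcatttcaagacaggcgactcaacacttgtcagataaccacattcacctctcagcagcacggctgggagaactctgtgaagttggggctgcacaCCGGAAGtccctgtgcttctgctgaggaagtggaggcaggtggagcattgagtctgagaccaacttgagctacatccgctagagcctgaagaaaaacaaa
Emg1, chr6:124712129-124712428, minus strand: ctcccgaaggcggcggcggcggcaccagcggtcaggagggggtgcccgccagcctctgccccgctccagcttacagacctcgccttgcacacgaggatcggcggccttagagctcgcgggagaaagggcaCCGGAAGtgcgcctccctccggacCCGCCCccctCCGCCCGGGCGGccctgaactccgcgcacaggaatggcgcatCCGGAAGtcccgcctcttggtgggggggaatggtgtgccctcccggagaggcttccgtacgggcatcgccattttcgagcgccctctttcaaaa

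The 3 low members differed in these letters, which were searched without regard to position. A match is therefore not shown to be a working element. In the printed windows, Bcat1 had 1 TATA box and 1 CCAAT box with 41% G and C. Ybx3 had 3 GC boxes with 69%, and Hnrnpf had 1 ETS core with 49.3%. Emg1 had 3 GC boxes and 2 ETS cores with 70%. Bcat1 had 2 listed windows and Hnrnpf had 4, of which only the one nearest the annotated gene start is printed. The table of RefSeq promoters matched 104 of the 132 members, with 133 windows. The GC box was in 59.4% of those windows, in 64.5% of the windows of all genes above 5 TPM and in 35.7% of all windows, while the TATA box was in 8.27%, 6.66% and 13.6%. The CCAAT box was in 35.3%, 38.6% and 37.4%, and the ETS core in 28.6%, 22.3% and 8.86%. The E box was in 7.52%, 11.01% and 7.15%. Between members with cell 7 lowest and the other members the GC box share was 57.7% of 78 windows against 61.8% of 55, and the ETS core share was 28.2% against 29.1%. The TATA box share was 10.3% against 5.45%, the CCAAT box share 37.2% against 32.7% and the E box share 7.69% against 7.27%.

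The 12 members with the highest level in the other cells are given first. Hnrnpf (chr6:117900324-117925622, plus strand), an RNA-binding protein of splicing, is the most abundant. It had 364 and 826 TPM in cells 1 and 6 of embryo 1, 190.8 in cell 7, and 491, 559.5 and 793 as the lowest, median and highest of embryo 2. Bcat1 (chr6:144993835-145076184, minus strand), which starts the breakdown of branched-chain amino acids in the cytosol, was the member with the smallest spread among the other cells. Its TPM was 546 and 497 in cells 1 and 6, 118.5 in cell 7, and 421, 473 and 519.6 in embryo 2. The log2 difference of -2.02 stood beside an SD of 0.12 among the other 8 cells. Ybx3, a cold-shock domain protein that binds mRNA, had 449 and 451 TPM, then 273 in cell 7, with 361, 445 and 475 in embryo 2. Its difference was smaller, at -0.68 with an SD of 0.12, and cell 7 was still below all others. Wnk1, a kinase that controls ion transport, had 211 and 415 in the sister cells and 48.9 in cell 7, with 109.8, 241 and 306 in embryo 2.

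Mlf2, a nuclear protein of the myeloid leukaemia factor family, had 701 and 435 TPM in the sister cells and 166.7 in cell 7, with 299.9, 397 and 557 in embryo 2. Strap, which binds the SMN complex, had 178.6 and 228, then 59.5, with 129.4, 201 and 276 in embryo 2. Arl8b, a small GTPase that moves lysosomes, had 204 and 143, then 41.6, with 115.4, 146.6 and 256 in embryo 2. These 3 were below all other cells. Fkbp4, a co-chaperone of HSP90, was lowest in cell 7 by a narrow step, with 115.0 against 133.1 to 275. The groups overlapped for the remaining 4 of the 12. Cd9, a tetraspanin of the egg and embryo surface, had 196.6 in cell 7 and 140.1 to 322 elsewhere. For Phb2, a prohibitin of the inner mitochondrial membrane, the values were 115.7 and 79.2 to 271. Emg1, a methyltransferase of the small ribosomal subunit, had 140.4 and 101.4 to 223. Vhl, which marks hypoxia-inducible factors for breakdown, had 121.6 and 87.0 to 312.

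**Figure D4:**
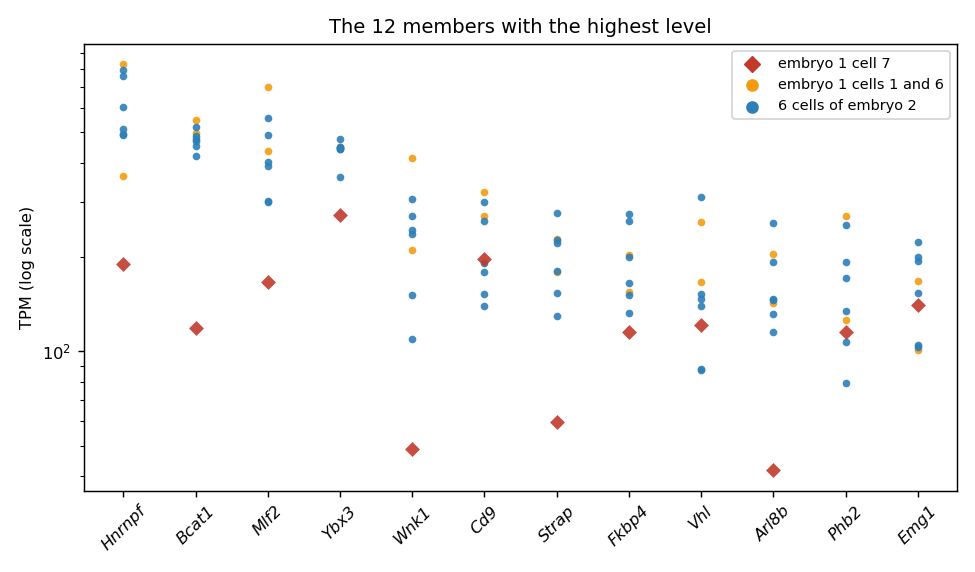
TPM (log scale) of the 12 members with the highest mean in the other 8 cells, 1 point per cell. Red diamonds are embryo 1 cell 7, which lies below all other cells for Hnrnpf, Bcat1, Mlf2, Ybx3, Wnk1, Strap, Fkbp4 and Arl8b and within their range for Cd9, Vhl, Phb2 and Emg1.

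The low values were found at all levels of expression. Among the 22 members above 100 TPM in the other cells, all were below the mean in cell 7, 17 were lowest in it, and the median ratio was 0.344. Of all 1179 genes above 100 TPM cell 7 was lowest for 213 (18.1%), and their median ratio was 0.912. Among members at 5 to 10 TPM the median ratio was 0.174 over 28 genes, where all genes of that level had 0.732. Across the 132 members the Spearman correlation of the difference with the mean level was 0.01, with gene length -0.17, with the length of the main transcript -0.27, with its number of exons -0.13 and with the distance from the start -0.12. These are descriptions across genes of 1 cell. The 63 members that overlap a gene on the other strand had a median difference of -1.42 and the other 69 had -1.37.

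**Figure D5:**
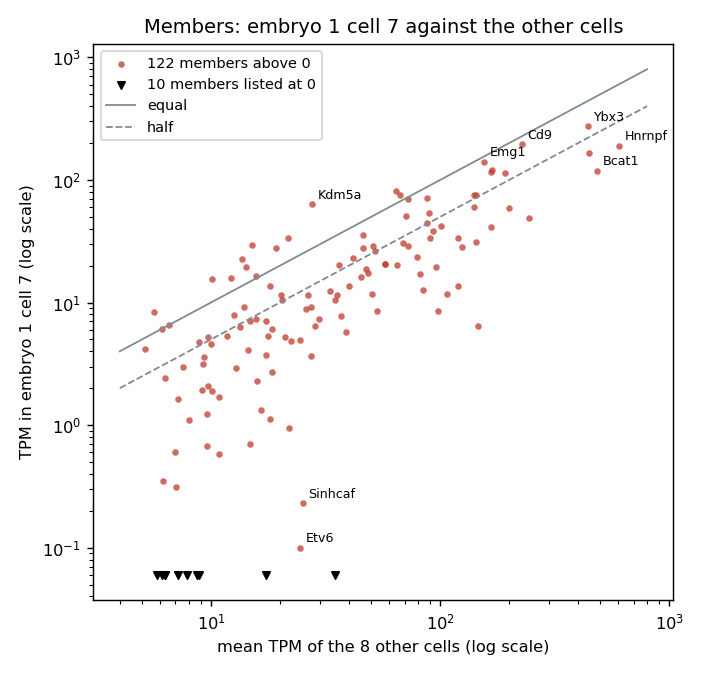
TPM in embryo 1 cell 7 against the mean TPM of the other 8 cells, 1 point per member, on log scales. Most points lie below the dashed line of 0.5 of the mean, as 91 of 132 do, and 10 members listed at 0 are drawn as triangles at the bottom.

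The other members are given by role. Beside the counts of each list stands the same background over all genes, where cell 7 was lowest for 18.6%, below the mean for 63.7% and below 0.5 of the mean for 24.3%. Of the chromatin and transcription genes, 21 of the 31 listed were members. Cell 7 was lowest for 14, below the mean for 18, and the median ratio was 0.370. The 3 Polycomb genes of the list were all low in this cell. Rybp had 83.1 and 131.8 TPM in the sister cells and 11.6 in cell 7, with 83.2, 109.3 and 126.4 in embryo 2. Aebp2, a partner of Polycomb repressive complex 2, had 59.8 against 85.0 to 223, and Phc1, a Polyhomeotic subunit of complex 1, had 1.23 against 2.96 to 21.3. All 3 were lowest in cell 7. Med21, of the Mediator complex, had 68.1 and 163.1 in the sister cells and 31.5 in cell 7, with 77.5, 130.4 and 239 in embryo 2.

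Some chromatin genes had very low TPM in cell 7. In a single library such values do not tell absent RNA from RNA that was missed. Members given here beyond the naming rule, such as Phc1, Etv6 and Sinhcaf, were chosen after their values were seen. Etv6, an ETS family repressor, was at 0.10 TPM, and the other cells had 4.44 to 36.6. Sinhcaf, a subunit of the SIN3 histone deacetylase complex, was at 0.23, with 4.75 to 45.6 elsewhere. Both were lowest in cell 7 by a wide step. Foxm1, a regulator of mitotic genes, had 0.35 and 0.93 to 10.2. Chd4, the remodeller of the NuRD complex, had 23.1 and 17.9 to 56.8, so it overlapped with the others. Cecr2, Atn1, Zfp239, Setd5, Tada3 and Zfp384 were also lowest in cell 7, while Atf7ip, Brpf1 and Zfp637 were below the mean but not lowest.

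Of this list 3 members were above the mean in cell 7. Kdm5a (chr6:120364124-120444574), which removes methyl groups from histone H3, had 25.9 and 42.4 TPM in the sister cells, 63.4 in cell 7, and 9.84, 21.1 and 58.2 in embryo 2. Tulp3, a protein of ciliary transport, had 8.38 against 0.36 to 14.5, and Ing4, a subunit of a histone acetyltransferase complex, had 75.2 against 27.6 to 93.6. These last 2 were within the range of the other cells.

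Transcripts of 1 gene could differ from its total. The transcript table splits the reads of a gene among its transcripts by estimation, so single transcripts are less certain than genes. Cell 7 is of the smaller lysis volume, with its 3′ bias of coverage, while the other cells come from both volumes. What this bias does to the transcript values was not tested. For Kdm5a the long protein-coding transcript of 28 exons had 2.92 TPM in cell 7 and 4.69 to 13.3 in the others, and it was lowest there. A retained intron transcript of 2 exons, at 60.5 TPM against 1.97 to 53.0, made up most of its gene total. Cd9 showed the same split, with 49.7 TPM against 78.7 to 182.4 for the protein-coding transcript and 143.1 against 40.8 to 173.7 for a retained intron transcript. A protein-coding transcript of Atg7 with 19 exons had 7.44 against 12.2 to 32.3 and was lowest in cell 7, while another with 20 exons had 4.75 against 0 to 49.4 and was not. A protein-coding transcript of Vhl with 3 exons had 41.1 against 60.4 to 86.5.

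Of the 201 transcripts of members above 5 TPM, which came from 109 genes, 150 were protein-coding. Cell 7 was lowest for 67 of the 150, where the background was 14% of protein-coding transcripts, and the median difference was -1.41. The 22 retained intron transcripts had a median difference of 0.06, and cell 7 was lowest for 1 of them, against a background of 6.59%. Over all genes the median differences of these 2 classes were -0.19 and 0.18. The median ratios of the 2 classes were 0.269 and 0.579 among the members, against 0.732 and 0.825 over all genes. By ratio the retained intron transcripts were thus also lower than their background. Of the 59 members for which cell 7 was not lowest, 40 had a protein-coding transcript above 5 TPM, and 12 of them had one for which cell 7 was lowest (among them Atf7ip, Atg7, Cd9, Chd4, D6Wsu163e, Dusp16, H2afj, Itfg2, Kdm5a, Thumpd3 and Vhl). Of all 4825 genes of this kind, 456 (9.45%) had such a transcript.

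Genome maintenance and cell cycle genes had 9 of 15 listed among the members. All 9 were below the mean, 6 were lowest in cell 7, and the median ratio was 0.302. Ppp4r2, a regulatory subunit of protein phosphatase 4, had 108.0 and 101.6 TPM in the sister cells and 28.6 in cell 7, with 64.3, 139.2 and 174.9 in embryo 2. Rad51ap1, a protein of homologous recombination, had 3.67 and 18.1 to 62.9, and Cdca3, a trigger of mitotic entry, had 23.6 and 39.5 to 140.3. Ncapd2, of the condensin I complex, had 28.0 and 16.5 to 72.8 and overlapped with the others. Rad18, Tatdn2 and Rhno1 were lowest as well, and Rad52 and Recql were not.

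In RNA processing and translation, 16 of 18 listed genes were members. None was above the mean, 8 were lowest, and the median ratio was 0.401. Ddx47, a helicase of ribosome assembly, had 101.5 and 50.6 TPM in the sister cells and 8.50 in cell 7, with 53.6, 92.7 and 186.3 in embryo 2. Hnrnpf and Strap are given above. Wbp11, Nop2, Bms1, Mrps35 and Rpusd3 were lowest too, Mrps35 by a narrow step (26.5 TPM against 26.7 in the lowest other cell). Mrpl51, Trnt1, Thumpd3, Caprin2, Magohb and Shq1 overlapped with the others, with ratios up to 0.970.

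Metabolism had 13 of 22 listed genes among the members and the lowest median ratio of the lists, 0.187. Cell 7 was lowest for 6, and Tpi1 and Pyroxd1 were tied at 0 with another cell. Tigar, a fructose bisphosphatase, had 152.3 and 62.4 TPM in the sister cells and 19.5 in cell 7, with 65.4, 77.5 and 167.7 in embryo 2. Rimklb, a ligase that makes N-acetylaspartylglutamate, had 13.6 and 21.4 to 283. Dera, an aldolase that degrades deoxyribose phosphate, was listed at 0 and had 2.49 to 15.9 in the others. Lpcat3 and Etnk1, of phospholipid synthesis, were lowest in cell 7.

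The glycolysis genes of the segment varied widely between cells. Gapdh had 6.46 TPM in cell 7, but 0 in embryo 2 cell 6, 3.78 in embryo 1 cell 6 and up to 312 in others, so cell 7 was not lowest. Tpi1, triosephosphate isomerase, was listed at 0 in cell 7 and in embryo 1 cell 6 and had 2.01 to 33.6 in the other 7. Both have near-identical pseudogene copies, so these values are uncertain. Eno2 had 0.70 and 0.51 to 35.8. Tamm41, of mitochondrial cardiolipin synthesis, was above the mean with 29.6 TPM against 0 to 31.8, and Sumf1 and Cmas were within the range of the others.

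Of 33 membrane traffic and organelle genes listed, 22 were members. Cell 7 was lowest for 13, below the mean for 20, and the median ratio was 0.379. Emc3, of the membrane protein insertase of the endoplasmic reticulum, had 177.4 and 106.0 TPM in the sister cells and 75.3 in cell 7, with 117.9, 134.2 and 184.3 in embryo 2. The lipid phosphatase Mtmr14 had 3.73 against 15.1 to 20.3, with an SD of 0.16 among the others, a gap with no overlap. Ergic2, of transport between endoplasmic reticulum and Golgi, had 53.3 and 31.9 to 165.0 and overlapped with them. Ccdc91, which acts at the trans-Golgi network, was listed at 0 in cell 7 and had 0.25 to 14.1 in the others. Atp6v1e1, Necap1, Jagn1, M6pr, Plekha5, Edem1, Tm7sf3, C2cd5 and Dennd5b were lowest too, and Tmcc1 was tied at 0 with embryo 2 cell 6. Sec13, Plbd1, Golt1b and Pex5 were below the mean and not lowest. Above the mean were Ipo8, an import receptor, with 19.6 against 3.33 to 23.03, and Atg7, of autophagy, with 81.1 against 29.0 to 101.1.

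Signalling genes and receptors had 12 members of 26 listed. Cell 7 was lowest for 8, below 0.5 of the mean for 10, and the median ratio was 0.288. Gprc5a (chr6:135065651-135084709), an orphan receptor induced by retinoic acid, had the most negative difference of the members, -4.88 on the log2(TPM + 1) scale. Since cell 7 is listed at 0, this value rests on the pseudocount, and it was -8.14 with a pseudocount of 0.1 and -2.78 with 5. It had 64.0 and 14.2 TPM in the sister cells, was listed at 0 in cell 7, and had 7.04, 33.8 and 58.7 in embryo 2. Irak2, a kinase of the Toll-like receptor pathway, had 11.6 and 13.3 to 63.5. Lrp6, a Wnt co-receptor, had 7.06 and 11 to 26.2. Rassf8, Stk38l and Plxnd1 were lowest, and Gdf3, Dusp16 and Ptpn6 were not, Ptpn6 being just above the mean. Plxnd1 was lowest by a narrow step at a very low level, 0.31 TPM against 0.43 in the lowest other cell.

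Protein turnover genes had 9 members of 15 listed. All 9 were below the mean, 5 were lowest, and the median ratio was 0.471, the highest of the lists. Cops7a, of the COP9 signalosome, had 163.6 and 127.4 TPM in the sister cells and 74.9 in cell 7, with 108.3, 130.3 and 174.5 in embryo 2. Usp5, which recycles ubiquitin chains, had 9.25 and 14.5 to 43.7. Uba3 and Fkbp4 are given above, and Mkrn2 was the fifth that was lowest. Crbn, Amn1, Fbxl14 and Vhl overlapped with the others.

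The cytoskeleton and adhesion list of 10 genes held 5 members, and 3 were lowest in cell 7. Brk1, of the WAVE complex, had 41.7 TPM against 82.0 to 135.4, and Arpc4, of the Arp2/3 complex that WAVE activates, had 38.0 against 57.1 to 142.8. Fgfr1op2 had 5.77 against 24.6 to 74.1, and Mical3 and Cd9 overlapped. All 3 apoptosis genes listed were members. Bcl2l14 had 145.2 and 98.7 in the sister cells and 33.8 in cell 7, with 72.6, 116.7 and 183.7 in embryo 2. Bcl2l13 had 1.33 against 7.03 to 30.8. Bid, the BH3-only protein that links death receptors to mitochondria, had 6.58 against 1.16 to 15.6 and a ratio of 1.00.

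The other 22 members were on no list. Cell 7 was lowest for 8 of them, among which were Ybx3, Resf1, Ints13, Washc2, Ccdc77, Lpar5 and B4galnt3. For B4galnt3 the step was narrow, 2.98 TPM against 3.04 in the lowest other cell. Resf1, the last member of the region, which keeps retroelements silent, had 12.7 TPM and 22.9 to 125.0 in the others. Lpar5, a receptor for lysophosphatidic acid, was listed at 0 against 1.62 to 15.8. Gm8994, Tuba3b and Slco1a6 were at 0 in cell 7 and in at least 1 other cell. Fxyd4, Ptms, Lhfpl4, Rep15 and Etfrf1 were above the mean, with ratios up to 1.65, and each lay within the range of the other cells. H2afj, Itfg2, D6Wsu163e, Grcc10, Mfap5 and Zfp422 were below the mean and not lowest. H2afj and Tuba3b have close copies elsewhere in the genome, so reads may be shared between them.

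At the TPM limit the members differed little from the genes just outside. Sumf1, Tmcc1 and Pyroxd1 were just inside, with means of 5.03, 5.18 and 5.43, and cell 7 had 4.16, 0 and 0. Fancd2os, Clstn3 and Frmd4b were just outside, with means of 4.93, 4.89 and 4.75, and cell 7 had 0 in all 3. Of the 55 protein-coding genes of the region with a mean of 1 to 5 TPM, 50.9% were listed at 0 in cell 7, against 30.2% of genes of that level elsewhere. Among the members 10 were listed at 0 (7.58%, background 2.38%).

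The 7 genes set aside by the rule had a median ratio of 0.713, and cell 7 was lowest for Ndufa9 and Tead4. Nanog, a transcription factor of pluripotency, was highest in this cell with 83.0 TPM against 10.3 to 46.7. Its neighbour Dppa3, a maternal factor, had 1201 against 1138 to 2169. The 31 genes of other classes above 5 TPM in the region, many of them pseudogenes and small RNA genes, had a median difference of -0.03, against -0.31 for such genes elsewhere in the nuclear genome.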

How the data were processed

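scRR-seq-RNA values came from 9 single cells of 2 embryos, of 13 cells that the labels describe. Before deposit the authors took an equal number of reads from each library and ran ramdaq 1.9.2, with Hisat 2.2.0 for alignment to mm10 and RSEM 1.3.1 with GENCODE M25 for TPM. The deposited TPM tables have 1 column per cell, each summing to 1000000, so they keep no depth and a rise of abundant RNA lowers all other values. The authors' replication scores of 40 kb bins (bwa 0.7.17-r1188, AneuFinder 1.2.1) were deposited as 1, -1 or 0 per bin and were used for the percent replicated only. Columns for RNA were assigned by the closing number of the sample title, since all headers name the same cell. A further 14 columns per table carry no label of this series and were not used.

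Genes were placed with GENCODE M21, in which 55141 of 55487 identifiers were matched. The difference of a gene was log2(TPM + 1) in embryo 1 cell 7 minus the mean of the other 8 cells, a scale that understates changes of low genes. No difference between cells was tested, because the members and the cell were chosen from these values and cells of 1 embryo are not replicates. The members and gene lists were chosen with earlier results of these data known. Named members were the 12 with the highest level, the 8 lowest and 8 highest ratios, the 3 nearest the start and the 4 highest of each list. Those given beyond this rule were chosen after their values were seen. Cells of embryo 2 far from the rest were listed by the gap to the next cell over the range, above 0.625. The scripts were tested on simulated data. Python 3.11.15, numpy 2.4.6, pandas 2.3.3 and matplotlib 3.10.9 were used. Some members counted here are not reported by name.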

Additional observations from a re-analysis of the deposited data

Results flagged for a closer look

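Among the 6 cells of embryo 2, 58 values were examined for a cell far from the rest (the members' summaries and the TPM of each named member), and 9 had one. The limit used, a gap to the next cell above 0.625 of the range, is passed by about 1 in 20 groups of independent, normally distributed values by chance. TPM values of cells of 1 embryo are neither, so the number 9 is not read as an excess. The summaries of the members had none, and 8 of the 9 were high values. Ybx3 was at 360.7 TPM in embryo 2 cell 3, below the 443 to 475 of the other 5 cells. In the same cell Tpi1 was at 33.6 TPM against 2.01 to 8.64, Kdm5a at 58.2 against 9.84 to 25.8, and Tigar at 167.7 against 65.4 to 99.3. Embryo 2 cell 8 had Vhl at 312.2 TPM against 87.0 to 152.0, Brk1 at 126.3 against 82.0 to 97.8, and Rad51ap1 at 62.9 against 18.1 to 27.5. Fgfr1op2 was at 74.1 in embryo 2 cell 5 against 24.6 to 40.6, and Usp5 at 43.7 in embryo 2 cell 2 against 22.2 to 30.1. The 3 cells of embryo 1 are too few for this comparison.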

How the results depend on the processing

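The members' median difference of -1.37 stayed between -1.47 and -1.05 under 17 alternatives, and between -1.39 and -1.31 when each other cell was left out in turn. It was -1.05 with a pseudocount of 5. The median TPM ratio of 0.341 ranged from 0.297 to 0.371, and from 0.331 to 0.354 with a cell left out. The summed TPM ratio of 0.430 became 0.567 with all gene classes included, and lay between 0.419 and 0.438 with a cell left out. The count of 73 members with cell 7 lowest was 48 of 72 members above 20 TPM and 40 of 69 members with no gene on the other strand, the latter chosen after seeing the data; fewer members entered both. It ranged from 73 to 81 with a cell left out. The proximal chromosome 6 median of -0.15 was -0.28 against the other embryo 1 cells and -0.0060 with cells centred on their median, and lay between -0.20 and -0.08 with a cell left out. Leaving out mitochondrial genes moved the median of all genes from -0.15 to -0.24 and that of the members to -1.47. For 53 named members, 720 of 742 values moved by less than the SD among the other cells, and none changed sign beyond it. The tables keep no depth, and 1 cell has no replicate. No paired analysis was possible because the result comes from no test and cell numbers do not pair cells across embryos.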
